A study of Mus musculus with 12 samples.

Results

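Myostatin, the activin subunit, transforming growth factor-beta (TGF-beta) and bone morphogenetic protein (BMP) genes were followed while cultured mouse muscle precursors differentiated. The group holds 10 genes of 19259 named genes on the array: the ligand genes Mstn, Inhba, Tgfb1, Tgfb2, Tgfb3 and Bmp4, the secreted antagonist Fst, the receptor Acvr2b, and the intracellular inhibitors Smad6 and Smad7. They were taken by symbol, through the RefSeq accession that the files give for each probe. No measured value entered that step, but the genes were chosen with earlier results of these data known. Each gene had exactly 1 probe, so isoforms were not told apart, and all 10 probes passed the filter on low values. The filter kept 22960 probes, those with at least 1 stage where the scanner's flag put all 3 arrays well above background.

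The cells were C2C12, an immortalised mouse myoblast line that stops dividing and fuses into multinucleated myotubes when serum is lowered. In the order of the course, the groups were proliferating cells in 10% fetal bovine serum, and cells 2, 5 and 8 days after transfer to 2% horse serum. The labels name no transgene or deletion, and the serum and the time in culture changed together between proliferation and the later stages. The labels speak of independent experiments, 3 at each stage, but do not say whether each came from its own culture, so a p-value here is about the spread among arrays, which may be technical.

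Ligands of the TGF-beta family are secreted dimers that bring together type II and type I receptor kinases at the cell surface. Myostatin, the activins and the TGF-betas signal mainly through Smad2 and Smad3, and the BMPs mainly through Smad1, Smad5 and Smad9, with Smad4 as the shared partner. Smad6 and Smad7 feed back on the pathway as inhibitors. In skeletal muscle, myostatin is known as a brake on growth, follistatin binds and neutralises myostatin and the activins, and added TGF-beta or BMP is known to hold back differentiation of C2C12 cells.

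Of the 7 genes called across the stages by the F test given below, 5 had an entry in the RefSeq promoter table (GRCm38.p6). The 250 bases before their annotated starts are printed here because of those calls. With the array slide added to the fit, the F test did not call Mstn, Tgfb2 or Acvr2b (adjusted p = 0.0739, 0.0699 and 0.445). Capitals mark the E-box CANNTG, the motif that the myogenic factors MyoD and myogenin bind, which reads the same on both strands. Mstn lies on the plus strand at chr1:53061390-53061639, Inhba on the plus strand at chr13:16011601-16011850, and Acvr2b on the plus strand at chr9:119401928-119402177. Tgfb2 lies on the minus strand at chr1:186705990-186706239 and Bmp4 on the minus strand at chr14:46390670-46390919, and each sequence reads 5′ to 3′ on the gene's own strand.
Mstn: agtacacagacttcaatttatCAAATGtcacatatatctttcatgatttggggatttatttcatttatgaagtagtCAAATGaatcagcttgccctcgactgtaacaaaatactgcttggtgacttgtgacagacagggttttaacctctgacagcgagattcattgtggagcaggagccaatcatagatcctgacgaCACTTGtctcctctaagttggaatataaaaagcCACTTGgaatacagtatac
Bmp4: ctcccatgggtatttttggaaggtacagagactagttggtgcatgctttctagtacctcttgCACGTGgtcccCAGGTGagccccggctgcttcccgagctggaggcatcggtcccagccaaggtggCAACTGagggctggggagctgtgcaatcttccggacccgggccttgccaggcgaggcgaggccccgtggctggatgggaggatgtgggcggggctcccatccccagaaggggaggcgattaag
Tgfb2: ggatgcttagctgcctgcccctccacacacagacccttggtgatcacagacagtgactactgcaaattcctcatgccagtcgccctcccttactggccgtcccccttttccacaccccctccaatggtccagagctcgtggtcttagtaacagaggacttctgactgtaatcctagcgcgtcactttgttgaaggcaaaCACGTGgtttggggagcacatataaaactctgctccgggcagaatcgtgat
Inhba: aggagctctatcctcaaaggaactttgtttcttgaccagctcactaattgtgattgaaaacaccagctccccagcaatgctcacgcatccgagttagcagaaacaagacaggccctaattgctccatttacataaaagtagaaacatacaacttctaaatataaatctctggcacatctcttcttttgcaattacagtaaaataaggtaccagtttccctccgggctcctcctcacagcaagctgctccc
Acvr2b: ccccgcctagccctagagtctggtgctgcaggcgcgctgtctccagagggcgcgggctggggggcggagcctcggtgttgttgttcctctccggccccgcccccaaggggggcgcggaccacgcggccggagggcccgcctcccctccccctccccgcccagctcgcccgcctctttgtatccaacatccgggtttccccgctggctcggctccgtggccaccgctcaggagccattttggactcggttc
Mstn held 4 E-boxes, CAAATG at 229 and 174 bases and CACTTG at 52 and 19 bases before the start, counted to the first base of the motif. Bmp4 held 3, CACGTG at 188, CAGGTG at 177 and CAACTG at 123 bases before the start, and Tgfb2 held 1, CACGTG at 51 bases. No match lay in these windows of Inhba and Acvr2b. An E-box is present in 66.2% of the 27025 promoter windows of this length, so holding one is common. CAGAC, the short motif that Smad proteins bind, was searched on both strands and occurred at 2 places in Mstn, 2 in Tgfb2 and 1 in Acvr2b, against 42.4% of all windows with at least 1 match. TATAAA was found in Mstn, Inhba and Tgfb2, against 12.9% of all windows, on either strand. The GC content was 38.4% for Mstn, 43.2% for Inhba, 53.6% for Tgfb2, 63.2% for Bmp4 and 72.8% for Acvr2b, with a median of 52% over all windows. A match describes the letters of these windows and is not a measured binding site.

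Signals below are the scanner's processed intensities, scaled so that the 75th percentile of every array equals the common value of 1488, and are called normalised signal. A brightness depends on the probe, so levels are compared between stages and never between genes. Over the 12 arrays the 75th percentile before scaling lay between 1256 and 1934, between 56.6% and 69.2% of probes were well above background, and 0 spots were saturated. Array signals correlated at 0.985 to 0.994 within a stage and at 0.929 to 0.985 between stages. With 3 arrays a stage, their number limits the precision. The median signal of negative probes was 6.25, 5.39 and 2.42 on the proliferation arrays and 1.39 to 3.53 on the later ones, in scanner units. The 12 arrays lay on 3 slides, and slide and stage are largely joined: slide 1 held all proliferation arrays and day 2 array 1, slide 2 held day 2 arrays 2 and 3 with day 5 arrays 1 and 2, and slide 3 held day 5 array 3 with all day 8 arrays. Day 8 and proliferation therefore share no slide, and the fit with slide as a block links them only through the days between.

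Muscle markers were measured as a check of the labels. Of 6 listed, 3 rose (Myog, Ckm and the skeletal actin gene Acta1), Myf5 fell and 2 did not pass at day 8 against proliferation. Myog, which encodes the differentiation factor myogenin, lay at 662 to 1006 in proliferating cells, 4210.5 to 7893 at day 2, 129561 to 157751 at day 5 and 46209 to 59599.7 at day 8. Ckm, the muscle creatine kinase, lay at 10.3 to 14.8, 63.1 to 127, 2576 to 2839.5 and 2069 to 2433 over the same stages, and only 1 proliferation array was well above background. Myod1, the myoblast determination factor, lay at 77725 to 107712, 61812 to 71739, 169595 to 188263 and 99757 to 142451, with a fall at day 2 against proliferation (-0.52, adjusted p = 0.0367). That call was lost in 12 of 22 alternative fits, among them the one with slide as a block (-0.41, adjusted p = 0.298). Myf5, a determination factor of the same family, lay at 16449 to 20613 at day 8, against 23826 to 25857 in proliferating cells.

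Markers of other cell types also moved, and their part in the results was not tested. The summed signal of 5 fibroblast markers was 448.5 to 602 in proliferating cells, 1971 to 2560.1 at day 2, 4247 to 4702 at day 5 and 7776 to 9683 at day 8. From day 2 on Pi16 carried most of that sum, with a mean of 7207 at day 8, against 129 in proliferating cells. At day 2 and at day 5 against proliferation 2 of the 5 rose (Pi16 and Dpt), and at day 8 Pdgfra and Col15a1 rose as well, while Thy1 passed in no comparison. Col15a1 was not well above background on any proliferation or day 2 array. Of 5 adipocyte markers Pparg fell at day 8 against proliferation by 1.54 on the log2 scale, which also holds for the changes that follow, and Cebpa (-0.09) did not pass, and Adipoq and Plin1 were well above background on 0 arrays. Of 5 osteoblast markers Bglap fell by 1.06 in that comparison, Runx2 (0.09) and Sp7 (-0.48) did not pass, and Alpl was well above background on 0 arrays. Of 4 macrophage markers on the array Csf1r rose by 1.28 and Cd14 fell by 1.05, and Adgre1 was well above background on 0 arrays. Of 5 endothelial markers Tek rose by 1.97, Kdr fell by 3.18 and Cdh5 fell by 2.17, and Pecam1 was well above background on 0 proliferation arrays. In bulk RNA of this kind, fewer cells of a type and less RNA per cell cannot be told apart.

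At day 8 against proliferation Bmp4 was 8.93-fold, Fst 5.61-fold, Tgfb2 3.89-fold, Tgfb3 3.88-fold and Acvr2b 1.60-fold higher, while Mstn and Smad7 were lower. A gene is called changed at a Benjamini-Hochberg adjusted p under 0.05 over all 22960 probes in limma, and errors of log2 changes are standard errors of that fit with 3 arrays a stage. The F test across the 4 stages called 7 of the 10 genes, beside 65.8% of all tested probes. It did not call Tgfb1 (adjusted p = 0.242), Smad6 (0.0885) or Smad7 (0.0933). With the slide as a block it called 4 of 10 (Fst, Inhba, Tgfb3 and Bmp4), beside 31.6% of all probes in that fit.

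At day 2 against proliferation, Tgfb3, Bmp4 and Acvr2b rose and Inhba and Fst fell, so 5 of 10 genes were called, beside 30.6% of all probes (18.3% higher, 12.3% lower). Their median log2 change was -0.13, and that of all probes 0.07. At day 5 against proliferation, 4 genes rose (Fst, Tgfb3, Bmp4 and Acvr2b) and 0 fell, beside 47.5% of all probes called (23.7% higher, 23.9% lower), with medians of 0.69 for the 10 genes and -0.02 for all probes. At day 8 against proliferation, 5 rose and 2 fell, beside 54.9% of all probes (25.3% higher, 29.6% lower), with medians of 0.48 and -0.12. Between day 5 and day 2, Fst, Inhba, Tgfb3 and Bmp4 were higher at day 5 and 0 genes were lower, beside 30.1% of all probes (14.3% higher, 15.7% lower), with medians of 0.83 and -0.09. Between day 8 and day 5, Inhba was higher and Mstn lower at day 8, beside 12.7% of all probes (5.88% higher, 6.84% lower), with medians of 0.02 and -0.08.

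The count of genes whose 3 arrays did not overlap between stages was 7 of 10 at day 2 and 7 of 10 at day 8 against proliferation, beside 46.4% and 63.6% of all probes. It was 6 of 10 at day 5 against proliferation, beside 56.2%, 6 of 10 at day 5 against day 2, beside 45%, and 4 of 10 at day 8 against day 5, beside 36.2%. Each later stage was set against the same proliferation arrays, so these counts are not independent of each other.

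**Figure D1:**
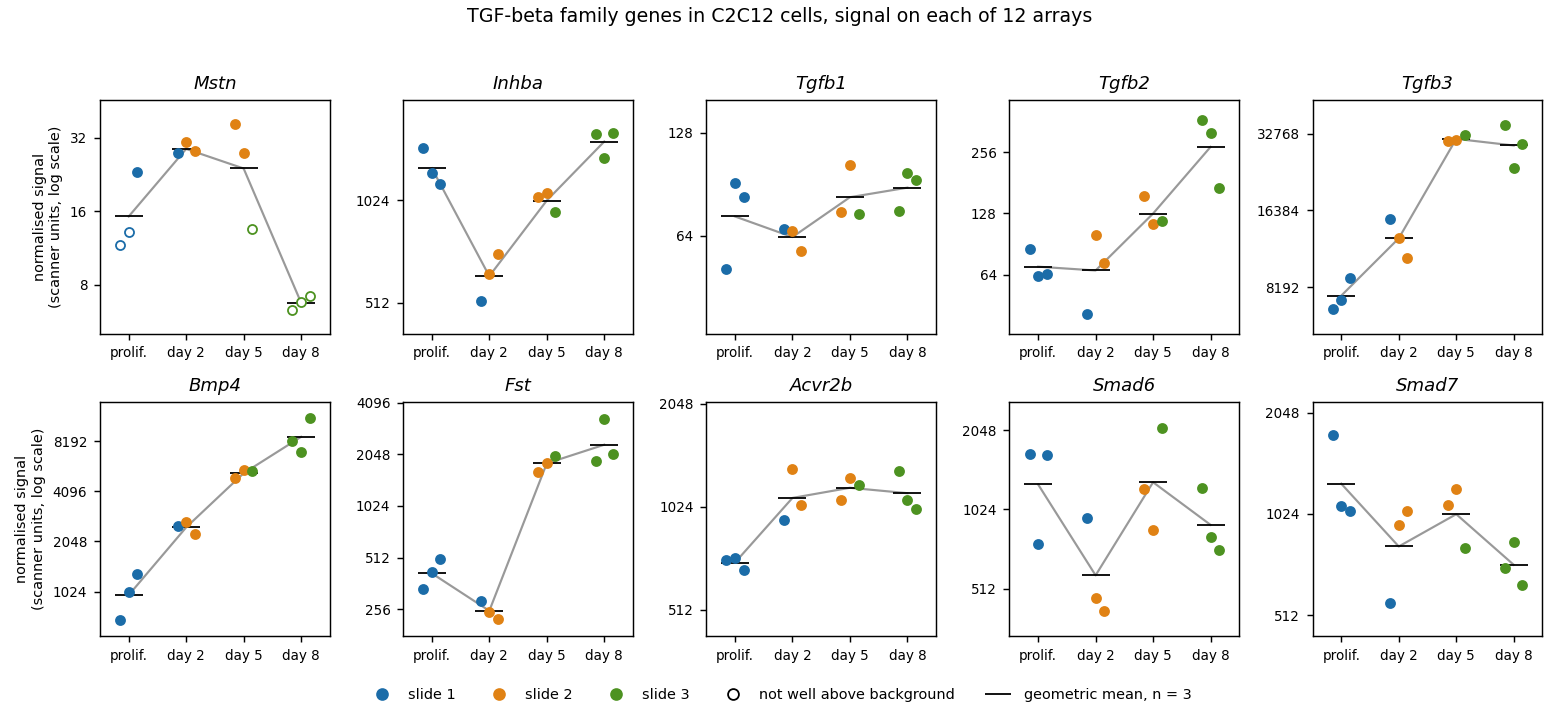
Normalised signal of the 10 genes in scanner units on a log axis, by stage, with 1 point per array coloured by slide (hollow where not well above background), a bar at each geometric mean (n = 3) and a line through the bars. Bmp4 climbed at each stage, Tgfb3 and Fst stood highest at days 5 and 8, and the day 8 arrays of Mstn, all on slide 3, lay between 6.31 and 7.19.

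Mstn encodes myostatin, the secreted inhibitor of muscle growth. Its normalised signal was 11.6, 13.1 and 23.2 on the proliferation arrays, 27.7, 30.6 and 28.1 at day 2, 36.5, 27.7 and 13.5 at day 5, and 6.31, 6.82 and 7.19 at day 8. The probe was dim: it was well above background on 1 proliferation array, on all 3 day 2 arrays, on 2 day 5 arrays and on 0 day 8 arrays. Mstn thus passed the filter on low values through day 2 alone, the stage with its highest mean. The filter therefore favoured a high day 2, and comparisons of day 2 with the other stages are not free of that choice. The day 8 arrays lay below all others, and the day 2 arrays lay above the proliferation arrays. Day 5 overlapped with both proliferation and day 2, and its lowest array was the one on slide 3.

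Mstn fell at day 8 by 1.82 ± 0.34 on the log2 scale against day 5 (adjusted p = 0.00851), where 2 day 5 arrays and 0 day 8 arrays were well above background. With the day 8 arrays set at their detection level the difference was 2.64-fold. That figure sets the mean of all 3 day 5 arrays against the mean, over the day 8 arrays, of the lowest signal among probes well above background or the probe's own, whichever was higher. It is not a lower bound, since day 5 array 3 was itself not well above background. Against proliferation the fitted change was -1.17 ± 0.34 (adjusted p = 0.013). With only 1 proliferation array well above background, no such figure is given for that comparison. Its log2 change of 0.92 ± 0.34 at day 2 against proliferation did not pass (adjusted p = 0.0622). With the slide as a block, the day 8 changes were -1.002 against day 5 (adjusted p = 0.157) and -0.02 against proliferation (adjusted p = 0.989). Leaving out proliferation array 3 also ended the fall against proliferation (-0.87, adjusted p = 0.052), as did quantile normalization (-0.50, adjusted p = 0.185). Leaving out spots flagged as non-uniform ended it when arrays were scaled by the remaining spots (-0.52, adjusted p = 0.352). In that fit the median of all probes was 0.51, and with arrays scaled by all spots the fall kept its call. Normexp background correction turned the sign of the change (0.35, adjusted p = 0.0785). Normexp correction also ended the fall against day 5 (-0.14, adjusted p = 0.641). The negative-probe signal was higher on proliferation arrays 1 and 2 (6.25 and 5.39) than on any later array. On proliferation array 3, which had the highest Mstn signal of its stage, it was 2.42, within the range of the later arrays. The part of the negative-probe signal in the result was not tested. The rise at day 2 passed with quantile normalization (1.02, adjusted p = 0.0264) and normexp correction (0.49, adjusted p = 0.03), and without non-uniform spots (1.52, adjusted p = 0.0156), without proliferation array 3 (adjusted p = 0.0222), without day 5 array 1 (0.044) or without day 5 array 3 (0.0156). At day 5 against proliferation, where the reported change was 0.65 ± 0.34 (adjusted p = 0.137), the same settings (adjusted p = 0.0192, 0.0217 and 0.012) gave a call, as did leaving out proliferation array 3 (0.0402) or day 5 array 3 (0.00835). The calls gained without non-uniform spots stood beside medians of all probes of 0.73 at day 2 and 0.80 at day 5. With arrays scaled by all spots, Mstn was called at neither day.

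Inhba encodes the beta A subunit, which pairs with itself to form activin A. Its signal was 1463, 1228 and 1146 in proliferating cells, 519, 622 and 715 at day 2, 1051, 1073 and 948 at day 5, and 1603, 1365 and 1615 at day 8. Day 2 lay below every array of the other stages, and day 8 overlapped only with proliferation. Inhba thus dipped and came back: it fell by 1.05 ± 0.15 at day 2 against proliferation (adjusted p = 0.000745), and rose by 0.74 ± 0.15 at day 5 against day 2 (adjusted p = 0.00391). Both calls held with the slide as a block, at -1.29 (adjusted p = 0.00492) and 0.67 (adjusted p = 0.0246). The further rise of 0.57 ± 0.15 at day 8 against day 5 (adjusted p = 0.0355) was lost with the slide block (0.68, adjusted p = 0.11), with normexp correction (0.29, adjusted p = 0.328) and without a filter on dim probes (adjusted p = 0.0943). Leaving out proliferation array 2 (adjusted p = 0.0524), any of the day 5 arrays (0.0943, 0.0682 and 0.0763 for arrays 1, 2 and 3), day 8 array 1 (0.106) or day 8 array 3 (0.103) ended it too. Day 8 and proliferation differed by 0.26 ± 0.15, which did not pass (adjusted p = 0.174).

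Tgfb1, Tgfb2 and Tgfb3 encode the 3 TGF-beta isoforms of mammals, which bind the same receptor pair. In the reported fit Tgfb3 and Tgfb2 were called in at least 1 comparison and Tgfb1 in none, and the difference between the isoforms was not tested. Tgfb3 had a signal of 6723, 7300.1 and 8916 in proliferating cells, 15111, 12822 and 10672 at day 2, 30653, 30833 and 32404 at day 5, and 35599.7, 24138 and 29797 at day 8. Proliferation, day 2 and the later days were separate, and days 5 and 8 overlapped. Tgfb3 rose at day 2 by 0.75 ± 0.18 against proliferation (adjusted p = 0.0109), and at day 5 by 1.30 ± 0.18 against day 2 (adjusted p = 0.000285). At day 5 it was 4.12-fold higher than in proliferating cells (adjusted p = 5.17e-06). The change between day 8 and day 5 was -0.09 ± 0.18 (adjusted p = 0.784). With the slide as a block the rises at day 2, 5 and 8 against proliferation were 0.99, 2.39 and 2.25 on the log2 scale, all still called.

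For Tgfb2, day 8 against proliferation was the only comparison that passed in the reported fit. Its signal was 85.1, 62.7 and 64.1 in proliferating cells, 40.8, 100.5 and 73.3 at day 2, 157, 114 and 117 at day 5, and 371, 318 and 171 at day 8. Proliferation lay within the range of day 2, every day 5 and day 8 array lay above them, and day 8 did not overlap with day 5. Tgfb2 was 3.89-fold higher at day 8 than in proliferating cells (log2 1.96 ± 0.35, adjusted p = 0.000764), a call that the slide block ended (1.07, adjusted p = 0.337). Its changes at day 5 against proliferation (0.87 ± 0.35, adjusted p = 0.0623), day 5 against day 2 (0.93 ± 0.35, 0.0691) and day 8 against day 5 (1.09 ± 0.35, 0.0661) did not pass. All 3 passed without day 8 array 3, and some passed without day 2 array 1 or 2, with adjusted p between 0.0294 and 0.0464. Day 5 against proliferation also passed with quantile normalization (adjusted p = 0.0298), normexp correction (0.0403) and without non-uniform spots (0.00993), a setting that also lifted the median of all probes to 0.80. Quantile normalization gave a call at day 5 against day 2 (0.0397), and normexp correction at day 8 against day 5 (0.0134).

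Tgfb1 had a signal of 51.1, 91.2 and 83 in proliferating cells, 66.9, 66.2 and 57.7 at day 2, 74.9, 103 and 73.9 at day 5, and 75.7, 98 and 93.5 at day 8. The proliferation arrays spanned all day 2 arrays and overlapped with days 5 and 8. No contrast of Tgfb1 passed in the reported fit, and its log2 changes lay between -0.20 ± 0.22 at day 2 against proliferation and 0.39 ± 0.22 at day 5 against day 2. Without non-uniform spots day 5 against proliferation passed (0.98, adjusted p = 0.0394), beside the median of 0.80 over all probes in that setting.

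Bmp4 encodes a BMP ligand, and BMPs added to C2C12 cells are known to turn them towards an osteoblast fate. Its signal was 692, 1022 and 1313 in proliferating cells, 2544, 2674 and 2269 at day 2, 4925, 5472 and 5425 at day 5, and 8281, 7089 and 11270.4 at day 8. No neighbouring stages overlapped. The stage means were 1009 ± 311, 2496 ± 207, 5274 ± 303 and 8880.3 ± 2154 in that order (SD, n = 3 each). Bmp4 rose at day 2 against proliferation by 1.35 ± 0.23 (adjusted p = 0.00185), at day 5 against day 2 by 1.08 ± 0.23 (adjusted p = 0.00461), and at day 8 against proliferation by 3.16 ± 0.23 (adjusted p = 1.01e-06). The last step, 0.73 ± 0.23 between day 8 and day 5, did not pass (adjusted p = 0.0646), and it passed without proliferation array 1 (0.0307) or 3 (0.0447) and when arrays were scaled by detected probes alone (0.0395). Within a slide the step was 1.38 for day 2 against proliferation (1 array against 3), 1.08 for day 5 against day 2 (2 against 2) and 0.68 for day 8 against day 5 (3 against 1). The calls at day 2, 5 and 8 against proliferation and at day 5 against day 2 held with the slide block. Pi16 and Dpt, of the fibroblast markers given above, also rose at all 3 later stages against proliferation, and their part in the results for Bmp4, Tgfb2, Tgfb3 and the pathway lists was not tested.

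Fst encodes follistatin, the secreted protein that binds activins and myostatin and blocks them. Its signal was 336, 424 and 501 in proliferating cells, 287, 246 and 224 at day 2, 1623, 1827 and 2007 at day 5, and 1863, 3295 and 2053 at day 8. Day 2 was lowest, proliferation came next, and days 5 and 8 overlapped with each other far above both. The main step came between day 2 and day 5: Fst was 7.22-fold higher at day 5 than at day 2 (log2 2.85 ± 0.23, adjusted p = 4.98e-06). It was 4.37-fold higher at day 5 and 5.61-fold higher at day 8 than in proliferating cells, and these 3 calls held with the slide as a block, at 2.88, 2.35 and 2.56 on the log2 scale. The change between day 8 and day 5 was 0.36 ± 0.23 (adjusted p = 0.314). The earlier fall of 0.72 ± 0.23 at day 2 against proliferation (adjusted p = 0.0329) was lost with the slide block (-0.53, adjusted p = 0.297), with normexp correction (-0.24, adjusted p = 0.313) and without a filter on dim probes (adjusted p = 0.0769). Leaving out proliferation array 2 (0.0818), proliferation array 3 (0.0994), day 2 array 2 (0.0813) or day 2 array 3 (0.0989) ended it too.

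In stage means, the high and low points of Mstn and Fst fell on different stages, and whether their courses are opposite was not tested. The rise of Mstn at day 2 against proliferation did not pass (limma adjusted p = 0.0622). With the slide as a block, neither its fall at day 8 (adjusted p = 0.989) nor the fall of Fst at day 2 (0.297), each against proliferation, was called. Mstn had its highest mean at day 2, overlapping with day 5. Fst had its lowest mean at day 2, and Fst was highest at day 8, where no array had Mstn well above background. Inhba shared its low point at day 2 with Fst. Across the 12 arrays the Pearson correlation of log2 signals was 0.60 for Fst and Inhba, which describes arrays of 4 stages and 3 slides, not 12 independent conditions. None is given for Mstn, which was not well above background on 6 of the 12 arrays.

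Acvr2b encodes a type II receptor through which myostatin and the activins signal. Its signal was 714, 726 and 669.9 in proliferating cells, 937, 1324 and 1034 at day 2, 1072, 1242 and 1183 at day 5, and 1305, 1073 and 1008 at day 8. All arrays of the later stages lay above the proliferation arrays, and the later stages overlapped with each other. Acvr2b rose by 0.63 ± 0.16 at day 2 (adjusted p = 0.0121), 0.73 ± 0.16 at day 5 (0.00282) and 0.67 ± 0.16 at day 8 (0.00385), each against proliferation. With the slide as a block none of these passed, at 0.41, 0.39 and 0.32 (adjusted p = 0.227, 0.375 and 0.611).

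Smad6 and Smad7 encode the inhibitory Smads; Smad6 acts mainly on BMP signals and Smad7 on both branches. Smad7 had a signal of 1761, 1082 and 1046 in proliferating cells, 554, 951 and 1041 at day 2, 1087, 1211 and 809 at day 5, and 709, 847 and 627 at day 8. The day 8 arrays lay below all proliferation arrays, with a fall of 0.80 ± 0.28 (adjusted p = 0.0319). That call was lost with the slide block (-1.14, adjusted p = 0.161), without a filter on dim probes (0.0623), without proliferation array 1 (-0.56, adjusted p = 0.12), and without day 8 array 1 (adjusted p = 0.0737) or 3 (0.0986). It was lost too in both fits without spots flagged as non-uniform (-0.02 with adjusted p = 0.976, and -0.56 with adjusted p = 0.131). At day 2 against proliferation the change was -0.62 ± 0.28 (adjusted p = 0.119), and -1.18 with the slide block (adjusted p = 0.0315).

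Smad6 had the largest standard error of the 10 genes. Its signal was 1658, 757 and 1646 in proliferating cells, 952, 472 and 422 at day 2, 1228, 852 and 2095 at day 5, and 1238, 802 and 720.1 at day 8. Proliferation overlapped with every later stage. Its changes of -1.15 ± 0.43 at day 2 against proliferation (adjusted p = 0.067) and 1.18 ± 0.43 at day 5 against day 2 (adjusted p = 0.0633) did not pass. The first passed without day 2 array 1 (0.0314), proliferation array 2 (0.0305) or day 5 array 3 (0.0476). The second passed without day 2 array 1 (0.0262), day 5 array 2 (0.0385) or proliferation array 2 (0.0447).

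**Figure D2:**
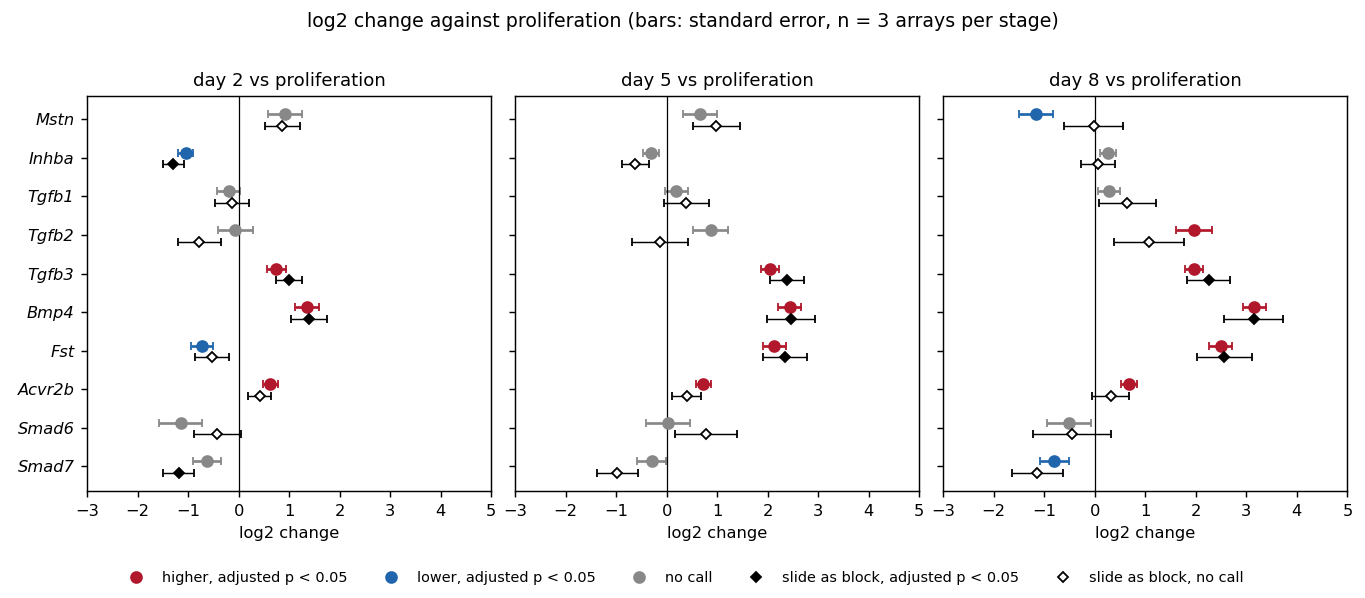
Log2 change of each gene at day 2, 5 and 8 against proliferation, with bars of 1 standard error (3 arrays a stage); circles give the reported limma fit, red or blue where higher or lower at an adjusted p under 0.05 and grey otherwise, and diamonds the fit with slide as a block, filled where called. Bmp4 at day 8 stands farthest from 0 (3.16), and the fall of Mstn at day 8 (-1.17) lies near 0 with the slide block (-0.02).

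Genes whose signal ran most alike over the 12 arrays were taken by Pearson correlation among 13732 named genes, as a description of arrays that share stages and slides. Tgfb3 ran closest to Per2 and Slc6a6 (0.993 each) and Bmp4 to Entpd2 (0.992) and Spon2 (0.991). Such courses were common: 375 genes exceeded 0.95 with Tgfb3 and 315 with Bmp4. Fst ran closest to Yipf7 (0.983) and the troponin gene Tnnt2 (0.982), with 39 genes above 0.95. Fewer genes exceeded 0.95 with the other called genes, a count that also depends on the noise of a probe and the size of its change. Mstn ran closest to Lct (0.961) and Nr1h5 (0.958), values that rest in part on the 6 arrays where Mstn was not well above background. Inhba ran closest to Serbp1 (0.961) and Cnr1 (0.952), Tgfb2 to Clcn4 (0.965) and Mef2c (0.940), and Acvr2b to Mamdc4 (0.962) and Tapbp (0.949). Genes above 0.95 numbered 5 for Mstn, 2 for Inhba, 1 for Tgfb2 and 1 for Acvr2b. Among the 10 genes themselves, Bmp4 and Tgfb3 ran most alike (0.947).

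The rest of the pathway was followed in 6 lists by role. Day 8 against proliferation is given for each list, beside the background of 54.9% of all probes called and the median of -0.12 over all probes. With the slide as a block 17.4% of all probes were called in that comparison (9.83% higher, 7.56% lower), which is the background for the list counts given with the block. The genes shown with array values were taken for the size of their called change in this comparison. Their separation between day 8 and proliferation follows largely from that choice and is no further support. Of all probes, 63.6% did not overlap between these stages. Of 27 further ligand genes, 14 passed the filter on low values: 6 rose and 2 fell, with a median log2 change of 0.17. Gdf6, a BMP-type growth and differentiation factor, had a signal of 1231, 1380.4 and 1315 at day 8, against 126, 124 and 154 in proliferating cells, without overlap, and rose by 3.29 ± 0.19 (adjusted p = 1.54e-07). Gdf5, its close relative, had 47.7, 64.3 and 41.6 at day 8, against 4.81, 4.78 and 2.32 in proliferating cells. On no proliferation array was Gdf5 well above background, and it was at least 3.67-fold higher at day 8 (adjusted p = 0.000101). It passed the filter through days 5 and 8 alone, the stages where it was high. Gdf15, a stress-induced and distant member of the family, had 7084, 6838 and 9025 at day 8, against 42670.4, 45322 and 57909 in proliferating cells, and fell by 2.67 ± 0.18 (adjusted p = 6.48e-07). All 3 calls held with the slide as a block, where the list kept 2 rises and 1 fall.

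Antagonists and latency proteins moved in both directions: of 21 genes, 17 passed the filter, 9 rose and 6 fell, with a median of 0.60. Chrd, the BMP antagonist chordin, had a signal of 9543, 8909 and 9531 at day 8, against 1245, 1182 and 1183 in proliferating cells, and rose by 2.95 ± 0.13 (adjusted p = 2.78e-08). Grem1, the BMP antagonist gremlin 1, had 181, 212 and 195 at day 8, against 1854, 1628 and 2421 in proliferating cells, and fell by 3.31 ± 0.18 (adjusted p = 1.13e-07). These antagonists of the same ligands thus ended on opposite sides, with no overlap between stages in either. Nog, which encodes noggin, another BMP antagonist, had 30.3, 24.9 and 23.9 at day 8, against 157, 148 and 405 in proliferating cells (fall of 3.01 ± 0.56, adjusted p = 0.000979). The slide block left Chrd and Grem1 at 3.23 and -3.36 and ended the call of Nog (-0.55, adjusted p = 0.741), and over the list it left 5 rises and 1 fall.

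Among 17 receptors and co-receptors, 15 passed the filter, 10 rose and 1 fell (Bambi, the BMP and activin pseudoreceptor), and the median was 1.22. Acvrl1, a type I receptor also called ALK1, had a signal of 134, 90.2 and 145 at day 8, against 23.4, 28.7 and 29.7 in proliferating cells, and rose by 2.15 ± 0.20 (adjusted p = 5.36e-06). Rgma, a BMP co-receptor, had 11408, 10014 and 10646 at day 8, against 1767, 2739 and 3207 in proliferating cells, and rose by 2.10 ± 0.21 (adjusted p = 1.12e-05). Tgfbr2, the type II receptor for TGF-beta, had 104776, 87380.1 and 106647 at day 8, against 17342, 28043 and 32374 in proliferating cells, and rose by 1.98 ± 0.21 (adjusted p = 1.67e-05). In none of these 3 genes did day 8 and proliferation overlap, and all 3 calls held with the slide block, where the list kept 5 rises and 0 falls. Of the 3 ligand-activating proteases that passed, of 6 listed and 4 on the array, only Bmp1 was called. Bmp1, which cleaves chordin and the propeptide of myostatin, had 12496, 11252 and 13945 at day 8, against 5981, 7022 and 6565 in proliferating cells. Its rise of 0.94 ± 0.16 (adjusted p = 0.000651) did not pass with the slide block (1.04, adjusted p = 0.114).

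The 18 Smads and intracellular regulators all passed the filter, and 3 rose and 4 fell, with a median of 0.09, and 2 rises and 1 fall with the slide block. Smad9, a Smad of the BMP branch, had a signal of 23.3, 30 and 23.8 at day 8, against 133, 109.9 and 153 in proliferating cells, and fell by 2.36 ± 0.31 (adjusted p = 9.7e-05). Pmepa1, a TGF-beta-induced inhibitor of Smad2 and Smad3, had 55606, 58961 and 92385 at day 8, against 14399, 13937 and 14451 in proliferating cells, and rose by 2.24 ± 0.23 (adjusted p = 1.29e-05). Both were separate between the stages and held with the slide block. Nedd4l, a ubiquitin ligase for Smads, had 49.4, 56.9 and 37.9 at day 8, against 83.2, 169.9 and 210.5 in proliferating cells, with a change of -1.60 ± 0.52 (adjusted p = 0.0236). The sign of Nedd4l turned with the slide block (0.33, adjusted p = 0.809). It turned too without non-uniform spots when arrays were scaled by the remaining spots (0.07, adjusted p = 0.909). In that fit the median of all probes was 0.51, and with arrays scaled by all spots Nedd4l kept its call. The call was lost with quantile normalization (adjusted p = 0.0686) and without proliferation array 2 (0.0678), proliferation array 3 (0.084), day 8 array 1 (0.0514) or day 8 array 3 (0.0742).

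Of 15 genes known to respond to TGF-beta or BMP, all passed the filter, 9 fell and 2 rose at day 8, and the median was -0.83. The falls included Id1, Id2 and Id3, which encode inhibitors of MyoD-type factors and are known BMP targets, at -1.63, -1.73 and -1.23. Tgfbi, a TGF-beta-induced matrix protein gene, went the other way, with a signal of 178, 151 and 192 at day 8, against 24.1, 50.8 and 29.9 in proliferating cells, a rise of 2.38 ± 0.24 (adjusted p = 1.28e-05). Col1a1, the type I collagen gene, had 20479, 26758 and 12662 at day 8, against 45711, 67347 and 93824 in proliferating cells, and fell by 1.79 ± 0.47 (adjusted p = 0.00744). Col1a1 lost its call with the slide block (-0.63, adjusted p = 0.724), Tgfbi (2.91) kept its call, and the list was left with 2 rises and 3 falls. The Id genes were picked for display after their values were seen, and the other BMP targets of the list are not given singly. Whether the falls of the Id genes held with the slide block is not given either. Their values are therefore no measure of BMP targets as a group.

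**Figure D3:**
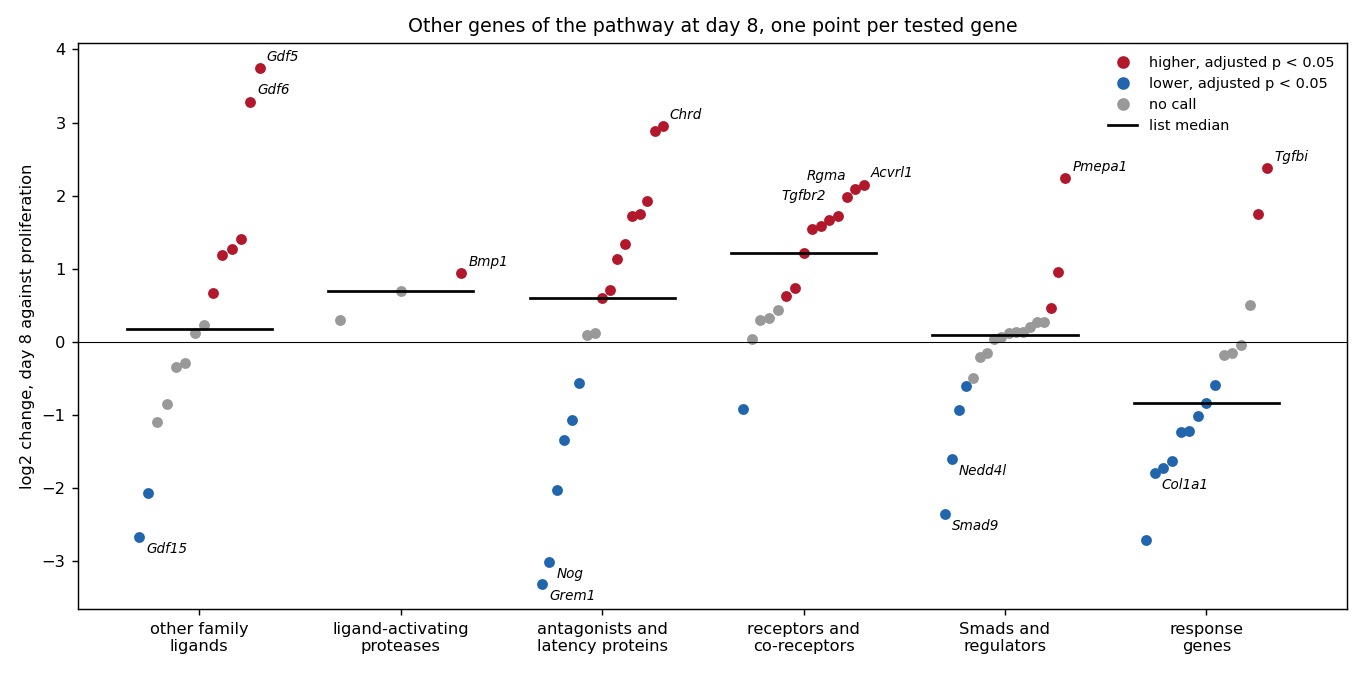
Log2 change at day 8 against proliferation for every tested gene of the 6 lists, 1 point per gene ordered by value, red or blue where higher or lower at an adjusted p under 0.05 and grey otherwise, with a bar at each list's median. The receptors sit mostly above 0 (median 1.22) and the responding genes mostly below (median -0.83).

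The calls of each list were spread over the steps of the course as follows, beside 30.6% of all probes called at day 2 against proliferation, 30.1% at day 5 against day 2 and 12.7% at day 8 against day 5. Some of the list counts lie near these shares, and no list was tested against them. At day 2 against proliferation 1 of the 15 responding genes rose and 6 fell, and at day 5 against day 2 the counts were 7 and 0. At day 8 against day 5 they were 2 and 4. The receptors had 4 rises and 2 falls at day 2 against proliferation, 8 and 0 at day 5 against day 2, and 4 and 1 at day 8 against day 5. The ligand list had 3 rises and 1 fall at day 2 against proliferation, 7 and 1 at day 5 against day 2, and 0 and 3 at day 8 against day 5. The antagonists had 6 and 2, 6 and 4, and 2 and 1 over the same steps, and the Smads and regulators 5 and 2, 3 and 0, and 0 and 0. The last step had, with the slide as a block, 2 called genes among the 82 tested in all 6 lists, both falls among the responding genes, beside 3.21% of all probes. The proteases had 1 rise and 1 fall at day 2 against proliferation and no call at the later steps.

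**Figure D4:**
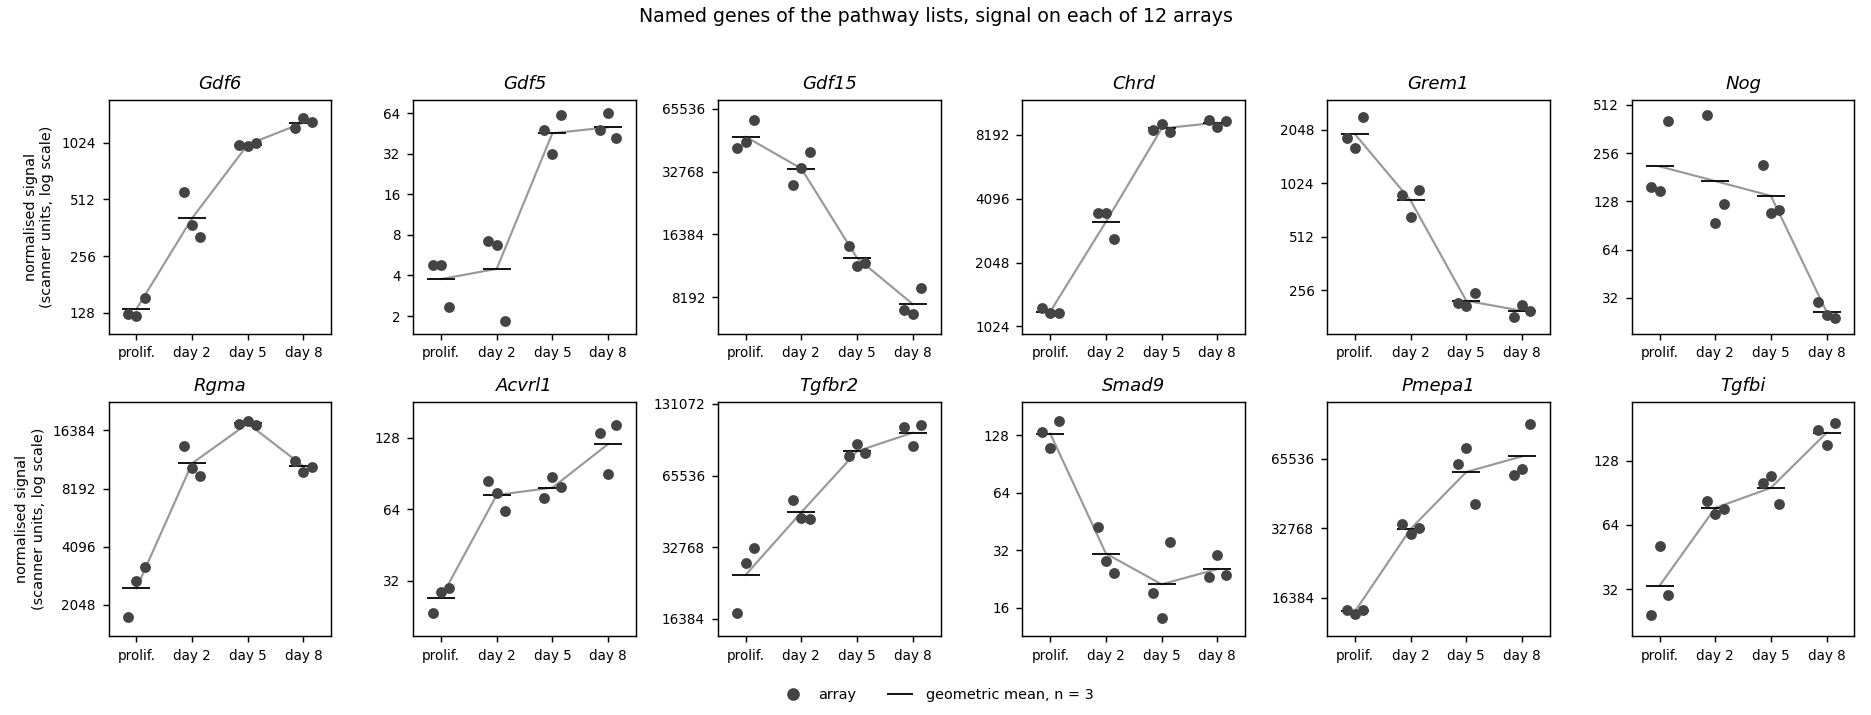
Normalised signal in scanner units on a log axis, by stage, of 12 of the named list genes, with 1 point per array, a bar at each geometric mean (n = 3) and a line through the bars. Chrd and Gdf6 climb up to day 5 while Grem1 and Gdf15 decline, and 1 day 2 array of Nog (439) lies above the other day 2 arrays.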

How the data were processed

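Each array has 1 deposited scanner file. The software was Agilent Feature Extraction, version 10.5.1.1, as the submitters' processing notes list it. The values used are the processed green (Cy3) signal, an intensity in scanner units that the software had treated for background, per the file headers. Whether the authors scaled arrays to each other is not given in the sources used here. From the deposited intensity, log2 was taken here, less the array's own 75th percentile. Controls and population-outlier spots were left out, spots of a probe were averaged, and spots flagged as non-uniform were kept.

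Stage means were fitted over 12 arrays with limma (lmFit and eBayes, version 3.58.1, R 4.3.3), with 5 contrasts and an F test, and Benjamini-Hochberg adjusted p under 0.05 over 22960 probes. The replicate number was not used as a block, since same-numbered arrays did not deviate together (correlations of -0.16 to 0.24). Alternatives were quantile normalization, a percentile over detected probes, normexp (offset 50, on the median signals, as the files hold no mean signal), other filters, slide and replicate blocks, the non-uniform spots left out, and each array left out. Tables were handled in data.table (version 1.17.8), and plots were made in matplotlib (3.10.9, Python 3.11.15).

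Symbols came from RefSeq's gene list for GRCm38.p6, while the array header names build mm9, and only promoter windows carry coordinates. The genes and lists were chosen with earlier results of these data known. Named are all 10 genes, the 3 largest called changes at day 8 of each list, the 2 most alike genes of each gene called in the F test, and Myod1, Myog and Ckm. 1 gene that this rule names is not reported here. Where a list gene had several tested probes, the brightest on average stands for it.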

Additional observations from a re-analysis of the deposited data

How the results depend on the processing

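With the slide as a block the count of called genes among the 10 was 4 for any stage (7 in the reported fit), 3 at day 8 against proliferation (7) and 0 at day 8 against day 5 (2), where 4625 probes still had an unadjusted limma p under 0.05. Without non-uniform spots only Mstn, Tgfb1, Tgfb2, Smad7 and Acvr2b had values, so counts are set against those of the same 5 genes in the reported fit. The first way took the percentile of the remaining spots and the second that of all spots. They called 3 and 2 of the 5 genes for any stage (3 in the reported fit), 2 and 1 at day 2 (1), 4 and 1 at day 5 (1) and 2 and 3 at day 8 (4) against proliferation, 0 and 0 at day 5 against day 2 (0) and 1 and 1 at day 8 against day 5 (1). Of the 13365 probes fitted without those spots, they called 4450 and 3170 at day 2, 6319 and 5396 at day 5 and 5760 and 6647 at day 8 against proliferation. Between day 5 and day 2 they called 2078 and 3450, and between day 8 and day 5 they called 279 and 1273. The first way gained Mstn at day 2 and Mstn, Tgfb1 and Tgfb2 at day 5 against proliferation. The first way moved the median of all probes to 0.73 at day 2 against proliferation, against 0.07, and 96.3% of calls there were higher, against 59.9%. Normexp correction gave 73.0% higher there. The day 8 against day 5 count was 1 in 3 further settings, each for its own gene. With normexp both Mstn and Inhba lost their calls and Tgfb2 was called, with no filter on dim probes Mstn was called, and with probes above background in at least 2 stages Inhba was called while Mstn was not tested. Over all probes, these 3 settings called 1834 of 22960, 1307 of 37246 and 2879 of 21674 in that comparison. A count of 1 gene beside them is no result about the 10 genes.

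With the replicate block the day 8 against day 5 count was 1, beside 2483 of all 22960 probes. Inhba lost its call there (adjusted p = 0.062), while Smad6 passed at day 2 against proliferation (0.0382) and at day 5 against day 2 (0.0339). Leaving out single arrays gave 7 to 8 genes for any stage, 4 to 7 at day 2, 4 to 5 at day 5 and 6 to 7 at day 8 against proliferation, 4 to 5 at day 5 against day 2 and 1 to 3 at day 8 against day 5. Of all 22960 probes, these fits called 5115 to 7342, 9612 to 10988 and 11087 to 13007 at day 2, 5 and 8 against proliferation. They called 5666 to 7190 at day 5 against day 2 and 1129 to 3437 at day 8 against day 5. The sign turned for Mstn at day 8 against proliferation under normexp (0.35), and for Nedd4l in that comparison with the slide block (0.33). For Nedd4l it also turned when non-uniform spots were left out the first way (0.071), but not the second. Over all probes, calls with the slide block numbered 3550 at day 2 (7029 in the reported fit), 5217 at day 5 (10917) and 3993 at day 8 (12597) against proliferation, and 737 at day 8 against day 5 (2920). The cause of these changes was not tested. Dim probes (Mstn, Gdf5) limit what can be said of falls near background.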
